A study of Mus musculus with 12 samples.

Results

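The genes described here are 9 kinases of the MAP kinase cascade: the MAP kinases Mapk3, Mapk8, Mapk9 and Mapk14, the MAP kinase kinases Map2k1, Map2k3 and Map2k4, the MAP3 kinase Map3k8, and Mapkapk2, a kinase that MAP kinases activate. They were chosen by gene symbol, as the probe sets that the array's gene table names for one of them. Of the 9 genes, 8 were measured, by 17 of the 22626 probe sets tested, out of 12393 genes in all, and Mapk3 (ERK1) was not analysed here. Each gene is represented by its brightest probe set, and its other probe sets are given beside it.

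The study measured spleen RNA of mice on Affymetrix MOE430A 2.0 arrays, to ask how DUSP1 shapes the response to bacterial lipopolysaccharide (LPS). The groups, of 3 mice each with 1 array per mouse, were DUSP1-/- mice taken 6 h after LPS, DUSP1+/+ mice taken 6 h after LPS, untreated DUSP1-/- mice and untreated DUSP1+/+ mice. LPS from E. coli was injected into the peritoneum at 10 µg per g of body weight, and the control mice were labelled as having had no treatment, so an injection without LPS is not among the groups. The labels give neither the strain, age or sex of the mice nor how the Dusp1 allele was made, and knockout below means the label DUSP1-/-, wild-type the label DUSP1+/+.

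MAP kinases are switched on by a chain of phosphorylations, in which a MAP3 kinase activates a MAP kinase kinase and this in turn activates the MAP kinase. When LPS binds Toll-like receptor 4 on macrophages and other cells, the chain runs in parallel arms that end in ERK, JNK and p38, and these raise the transcription and the mRNA stability of cytokine genes. DUSP1 is a phosphatase, itself induced by LPS, that removes the activating phosphates from JNK and p38. The arrays measured mRNA only, so they hold no reading of kinase activity.

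The values are RMA intensities, tested as log2 with limma, adjusted by the Benjamini-Hochberg method over all probe sets, with a gene called where the adjusted p was under 0.05. Values after ± are standard errors of a log2 difference between groups of 3 arrays. Array medians ran from 47 to 63. They were 48 in knockout LPS and 47 to 52 in wild-type LPS arrays. In controls they were 52 to 63 in knockout and 49 to 57 in wild-type arrays. Correlations between arrays of a group ran from 0.965 to 0.989 in knockout LPS, from 0.963 to 0.986 in wild-type LPS, from 0.909 to 0.950 in knockout control and from 0.938 to 0.961 in wild-type control arrays. Some arrays stood apart. Summed pancreas markers reached 20947 and 2570 in knockout control 1 and 3 and 39438 in wild-type control 1, with at most 206 in every other array. Summed lung markers were 2168 and 1276 in knockout LPS 1 and 3 and 2533 and 2581 in knockout control 2 and 3, with at most 432 in the others. Xist, transcribed in female cells, had an intensity of 35 and 47 in wild-type control 2 and 3 and of 1101 to 3949 in the others. Summed liver markers were highest in knockout control 2, at 10466, and ran from 138 to 4321 in the others. Summed red cell precursor markers were 17199 in knockout control 1 and 8957 in wild-type control 2. They ran from 902 to 5216 in the others. Calls on the members that are lost without the 3 arrays high in pancreas transcripts, the 2 wild-type controls low in Xist or the 2 knockout LPS arrays high in lung transcripts are given with the gene, while knockout control 2 and 3 stayed in the last of these fits. Each of these fits leaves 1 array in a group: knockout control 2, wild-type control 1 and knockout LPS 2 in turn. A call lost there is therefore given with its effect size.

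The intensity of Dusp1 after LPS was 4963, 2948 and 4996 with the knockout label, against 2248, 2142 and 2116 with the wild-type label. It was 677, 1528 and 1443 in knockout controls and 479, 1354 and 627 in wild-type controls. The signal was thus not lower in the arrays labelled knockout, where the difference after LPS was 0.95 ± 0.41 on the log2 scale (limma adjusted p = 0.5282). The sources used here do not say whether the probes match the altered stretch of Dusp1, so its signal is no check of the genotype labels.

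The promoters of 4 members that changed after LPS are shown, because both directions of change occur among them. Each is the 250 bases before the start of the gene's first entry in RefSeq's table (GRCm38.p6), 5′ to 3′ on the gene's own strand, and the capitals mark the GC box (GGGCGG or its complement), the site of Sp-family factors. The stretches are chr9:64253606-64253855 on the minus strand for Map2k1, chr1:131097844-131098093 on the minus strand for Mapkapk2, chr11:65788360-65788609 on the minus strand for Map2k4, and chr17:28691092-28691341 on the plus strand for Mapk14.
Map2k1: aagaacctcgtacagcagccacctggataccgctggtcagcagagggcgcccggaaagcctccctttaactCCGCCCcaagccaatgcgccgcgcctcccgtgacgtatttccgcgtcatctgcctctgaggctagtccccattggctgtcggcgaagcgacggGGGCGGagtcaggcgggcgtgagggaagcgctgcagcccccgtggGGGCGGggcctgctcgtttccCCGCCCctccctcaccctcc
Mapkapk2: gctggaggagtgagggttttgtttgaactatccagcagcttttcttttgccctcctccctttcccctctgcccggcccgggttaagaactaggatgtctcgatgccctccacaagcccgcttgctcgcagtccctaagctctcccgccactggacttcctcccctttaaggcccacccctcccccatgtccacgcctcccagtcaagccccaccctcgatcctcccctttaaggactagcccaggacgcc
Map2k4: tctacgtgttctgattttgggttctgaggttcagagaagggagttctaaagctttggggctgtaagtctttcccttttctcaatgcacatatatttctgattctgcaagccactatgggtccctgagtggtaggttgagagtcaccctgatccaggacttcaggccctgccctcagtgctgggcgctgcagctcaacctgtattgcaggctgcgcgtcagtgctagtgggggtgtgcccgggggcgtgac
Mapk14: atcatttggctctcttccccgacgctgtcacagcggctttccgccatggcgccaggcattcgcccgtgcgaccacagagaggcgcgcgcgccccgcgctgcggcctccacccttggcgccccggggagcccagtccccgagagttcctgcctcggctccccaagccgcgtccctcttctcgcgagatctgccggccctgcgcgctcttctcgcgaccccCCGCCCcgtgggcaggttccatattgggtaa
The Map2k1 stretch holds 4 GC boxes and that of Mapk14 holds 1, while those of Mapkapk2 and Map2k4 hold 0. Across 32851 promoters of the table, 32.7% hold the box within the same 250 bases on either strand. The stretches shown, and those of Map2k3, Mapk8 and Mapk9, held no match to the AP-1 site TGANTCA (6.75% of promoters), the cAMP response element TGACGTCA (1.55%) or the kappa B consensus (7.25%). These are matches of letters in 1 window and are given as a description.

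In knockout spleens, LPS raised 4 of the 8 measured genes, Map3k8, Map2k1, Mapkapk2 and Map2k4, and lowered 1, Mapk14, with 3 not called. In wild-type spleens it raised 2, Map3k8 and Map2k1, and lowered Mapk14, with 5 not called. Averaged over both genotypes, the same 4 rose and Mapk14 fell. The 5 called members of 8 stand against 15.2% of all genes called in knockout spleens, where 5.54% of genes were higher and 9.71% lower. The 3 called in wild-type spleens stand against 8.09% of genes, 3.93% higher and 4.16% lower. In the average, 22.9% of genes were called, 8.52% higher and 14.3% lower. These shares include dim genes, while the members' brightest probe sets lay between the 59.22 and 90.29 percentile of mean intensity. The members were also chosen with earlier results of these data known, so the counts are a description. The median log2 response of the 8 genes was 0.37 in knockout and 0.04 in wild-type spleens, beside medians over all genes of -0.06 in knockout and -0.03 in wild-type spleens.

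**Figure D1:**
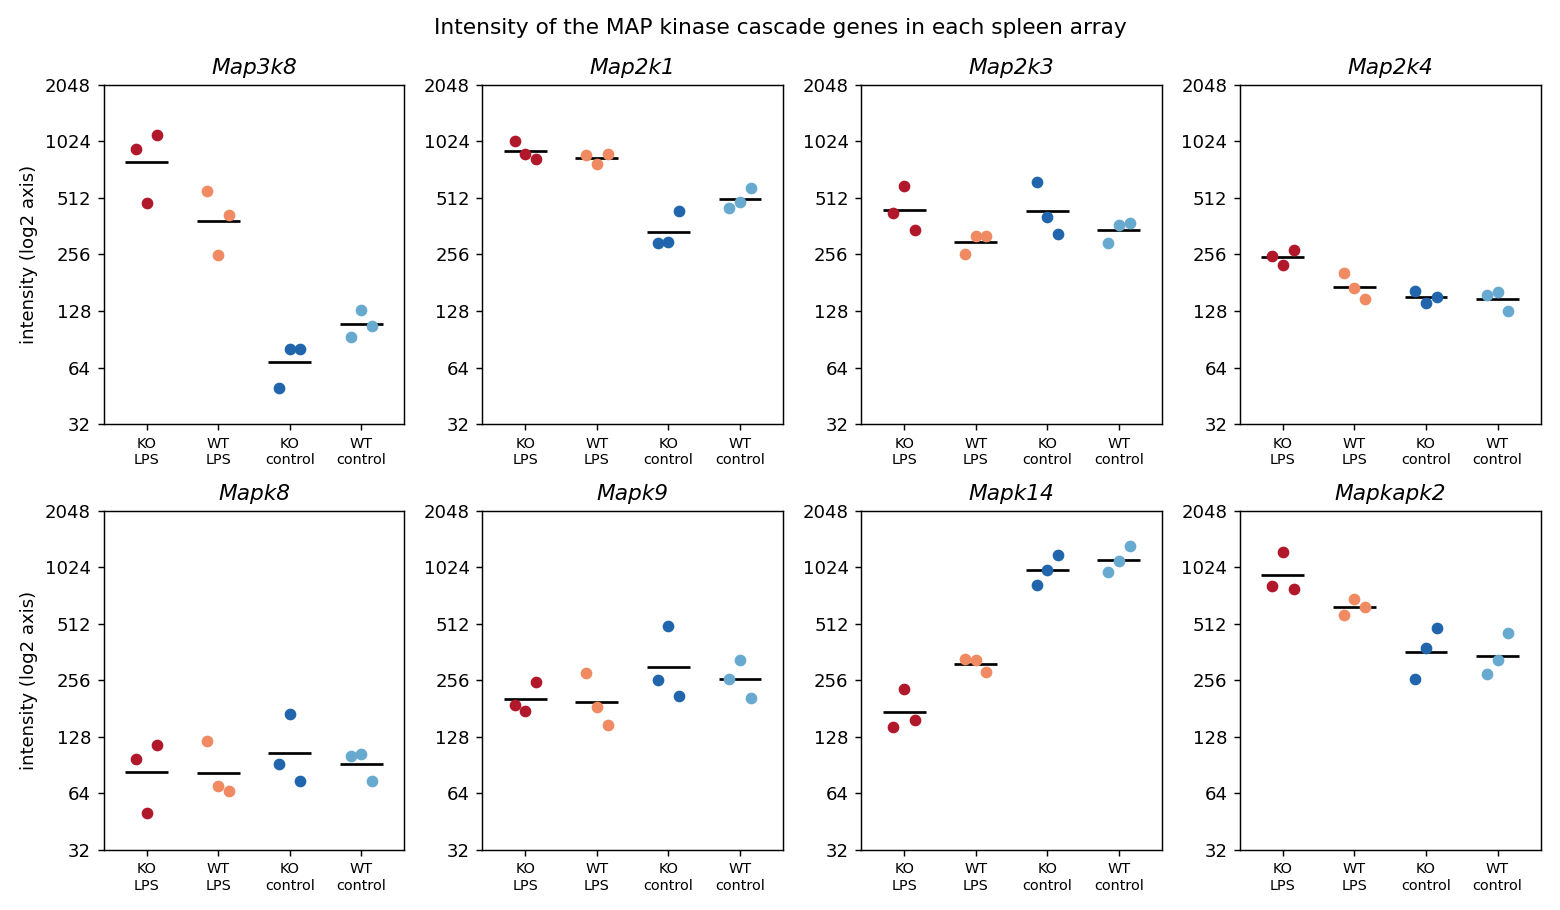
RMA intensity (log scale) of the 8 measured members in each of the 12 arrays, with 1 point per mouse and a bar at the group's mean on the log2 scale, for knockout LPS, wild-type LPS, knockout control and wild-type control arrays. Map3k8 and Mapk14 show the widest gaps between LPS and control arrays, in opposite directions.

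Map3k8 encodes TPL2 (COT), the MAP3 kinase that links Toll-like receptors to ERK by phosphorylating Map2k1. Its intensity was 938, 483 and 1109 in knockout LPS arrays, 557, 254 and 414 in wild-type LPS arrays, 50, 80 and 80 in knockout controls and 93, 130 and 107 in wild-type controls. Every LPS array was above every control array of either genotype. The response was a log2 difference of 3.54 ± 0.36 in knockout spleens (11.6-fold, limma adjusted p = 2.36e-04) and 1.83 ± 0.36 in wild-type spleens (3.56-fold, adjusted p = 0.01358). In wild-type spleens the call did not hold without wild-type control 1 (adjusted p = 0.05188) or wild-type LPS 3 (adjusted p = 0.06624). Nor did it hold without the 3 arrays high in pancreas transcripts (response 1.72) or the 2 controls low in Xist (response 2.06). The knockout call held in all 24 alternatives. The gene lies on chromosome 18.

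Map2k1 encodes MEK1, the kinase that activates ERK1 and ERK2. Its intensity was 1025, 883 and 822 in knockout LPS arrays, 866, 780 and 878 in wild-type LPS arrays, 294, 300 and 436 in knockout controls and 453, 489 and 578 in wild-type controls. The LPS arrays of both genotypes lay together between 780 and 1025, and the controls lay below them with the knockout controls lowest. Map2k1 rose by a log2 difference of 1.42 ± 0.19 in knockout spleens (2.69-fold, limma adjusted p = 9.83e-04) and by 0.74 ± 0.19 in wild-type spleens (1.67-fold, adjusted p = 0.04259). The wild-type call is close to the threshold, and it was lost in 15 of 24 alternatives, among them those without any 1 of the 6 LPS arrays, wild-type control 1 or wild-type control 2, with adjusted p up to 0.1575. It was also lost without the arrays high in pancreas transcripts (response 0.66) or the controls low in Xist (response 0.89). The same held without the 2 knockout LPS arrays high in lung transcripts (response 0.74).

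Map2k3 encodes MKK3, which activates p38. Its brightest probe set gave 346 to 594 in knockout LPS, 259 to 320 in wild-type LPS, 330 to 619 in knockout control and 293 to 378 in wild-type control arrays, so that LPS and control arrays overlapped in both genotypes. The LPS response was 0.03 ± 0.26 in knockout spleens (limma adjusted p = 0.9746) and -0.21 ± 0.26 in wild-type spleens (adjusted p = 0.7846), and the sign of the average, -0.09 ± 0.19, turned under several alternatives. The second Map2k3 probe set averaged 0.48 ± 0.38 and was not called.

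Map2k4 encodes MKK4, which activates JNK and can also act on p38. Its brightest probe set gave 251, 226 and 269 in knockout LPS arrays, 204, 169 and 149 in wild-type LPS arrays, 163, 142 and 152 in knockout controls and 156, 161 and 128 in wild-type controls. The knockout LPS arrays were above all others, while wild-type LPS and wild-type control arrays overlapped. The response was 0.71 ± 0.17 in knockout spleens (1.63-fold, limma adjusted p = 0.01971) and 0.23 ± 0.17 in wild-type spleens (adjusted p = 0.5621). The second probe set gave the same pattern, with a response of 1.03 ± 0.22 in knockout spleens (adjusted p = 0.01205). The knockout call was lost in 7 of 24 alternatives. Among these were the fits without knockout control 2 (adjusted p = 0.051), knockout LPS 1 (0.07383) or knockout LPS 3 (0.0804). So were those without the arrays high in pancreas transcripts (response 0.80) or both knockout LPS arrays high in lung transcripts (response 0.57). The average over genotypes, 0.47 ± 0.12 (adjusted p = 0.01835), lost its call in 4 of 23 alternatives. Among these was the fit without knockout LPS 3 alone (adjusted p = 0.05031). So were those without the controls low in Xist (average 0.43) or the 2 knockout LPS arrays high in lung transcripts (average 0.40).

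Mapk8 and Mapk9 encode JNK1 and JNK2, the kinases that phosphorylate Jun. Neither was called in either genotype. Mapk8 ranged from 50 to 116 in knockout LPS, 66 to 121 in wild-type LPS, 74 to 169 in knockout control and 74 to 103 in wild-type control arrays. Its average response was -0.25 ± 0.27, with a 95% interval of -0.85 to 0.36, which spans changes of either sign. Mapk9 ranged from 175 to 250 in knockout LPS, 147 to 280 in wild-type LPS, 210 to 497 in knockout control and 205 to 330 in wild-type control arrays. Its response was -0.57 ± 0.34 in knockout spleens, with an interval of -1.33 to 0.19, and -0.40 ± 0.34 in wild-type spleens, with an interval of -1.16 to 0.36. The array of knockout control 2 was the highest of all 12 both for the brightest Mapk8 probe set, at 169, and for each of the 3 Mapk9 probe sets, at 497, 192 and 81. It was also the array highest in liver markers, whose part in these values was not tested.

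Mapk14 encodes p38 alpha, the MAP kinase through which LPS stabilises cytokine mRNAs and a main substrate of DUSP1. It was the only member called lower. Its intensity was 144, 229 and 158 in knockout LPS arrays, 333, 328 and 283 in wild-type LPS arrays, 823, 994 and 1190 in knockout controls and 963, 1099 and 1323 in wild-type controls. All LPS arrays lay below all controls, and the knockout LPS arrays lay below the wild-type LPS arrays. The log2 response was -2.52 ± 0.22 in knockout spleens (5.72-fold lower, limma adjusted p = 8.11e-05) and -1.83 ± 0.22 in wild-type spleens (3.57-fold lower, adjusted p = 9.55e-04). Averaging all probe sets of the gene left the wild-type response uncalled (-1.07, adjusted p = 0.09759).

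Another 2 probe sets of Mapk14 were dimmer and lower after LPS. One gave 48, 67 and 43 in knockout LPS arrays, 87, 95 and 73 in wild-type LPS arrays, 224, 290 and 134 in knockout controls and 57, 270 and 368 in wild-type controls. Wild-type control 1, the array highest in pancreas transcripts, was the control that fell among the LPS arrays, at 57. It was also the only wild-type control not low in Xist, at 2673. The part of either trait in the value was not tested. Knockout control 1, next highest in pancreas transcripts, gave 224 on this probe set. This probe set averaged -1.53 ± 0.41 over genotypes (limma adjusted p = 0.02245) and the other averaged -1.55 ± 0.44 (adjusted p = 0.0305), with wild-type control 1 again low, at 26. In wild-type spleens neither was called, with responses of -1.08 (limma adjusted p = 0.3649) and -1.22 (adjusted p = 0.3383). In knockout spleens the first was called, at -1.99 (adjusted p = 0.0455), and the other was not, at -1.88 (adjusted p = 0.07786). The remaining Mapk14 probe set was dim, between 9 and 17 on every array, and averaged -0.01 ± 0.15.

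Mapkapk2 encodes MK2, the kinase that p38 activates and that acts on mRNA-binding proteins of cytokine transcripts. Its intensity was 814, 1239 and 788 in knockout LPS arrays, 573, 695 and 629 in wild-type LPS arrays, 259, 380 and 484 in knockout controls and 276, 327 and 457 in wild-type controls. LPS arrays were above the controls in both genotypes. The response was 1.35 ± 0.28 in knockout spleens (2.56-fold, limma adjusted p = 0.009534) and 0.87 ± 0.28 in wild-type spleens (1.82-fold, adjusted p = 0.09669), the second called only with array weights (adjusted p = 0.02489). The knockout call was lost with only the groups compared in the fit (adjusted p = 0.05192). Without the 2 knockout LPS arrays high in lung transcripts the knockout response was 1.77 and not called, with 1 array left in that group. In the average over genotypes Mapkapk2 was higher by 1.11 ± 0.19 (adjusted p = 0.002514), so the transcripts of p38 alpha and of the kinase it activates moved in opposite directions.

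**Figure D2:**
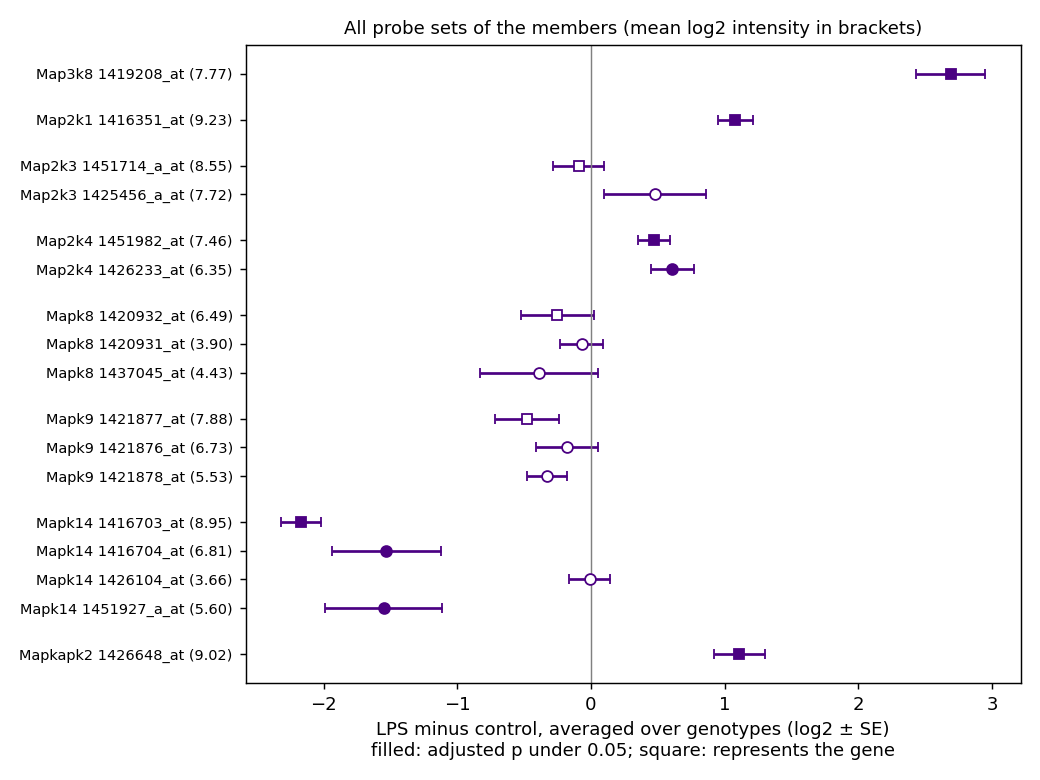
Log2 LPS response (LPS minus control, averaged over genotypes, ± standard error) of all 17 probe sets of the members, listed by gene with their mean log2 intensity in brackets. Squares represent the gene, filled symbols have an adjusted p under 0.05, and the 3 brighter Mapk14 probe sets lie between -2.17 and -1.53 while the dim one lies at -0.01.

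Counted by probe set, 7 of the 17 were called in knockout spleens, 5 higher and 2 lower, against 12.7% of all probe sets. In wild-type spleens 3 of 17 were called, against 6.59%, and in the average 8 of 17, against 19.8%. Both Map2k4 probe sets were called in knockout spleens. The 2 dim Mapk8 probe sets and all 3 of Mapk9 were called nowhere.

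These are RNA measurements of whole spleen, in which fewer cells of a type and less RNA per cell cannot be told apart. Summed B cell markers (5 of 6 measured) ran from 3331 to 4778 in knockout LPS, 3611 to 7234 in wild-type LPS, 4992 to 12909 in knockout control and 9025 to 11848 in wild-type control arrays. The sum was thus lower after LPS in both genotypes, as Mapk14 was. Its members differed. Cd79b was below all controls of its genotype in both, Cr2 in knockout and Blk in wild-type spleens only. Cd79a and Ms4a1 overlapped in both genotypes. Summed T cell markers ran from 1053 to 1576 in knockout LPS, 915 to 1508 in wild-type LPS, 1180 to 3748 in knockout control and 2254 to 3149 in wild-type control arrays. Those of monocytes and macrophages (6 of 6) ran from 10948 to 12862 in knockout LPS, 8892 to 9450 in wild-type LPS, 11313 to 13748 in knockout control and 12668 to 14195 in wild-type control arrays, so their sum was lower after LPS in wild-type spleens and overlapped in knockout spleens. Members of that list went opposite ways, so the sum mixes a rise of Cd14 with falls of others. Cd14 alone was above all controls in every LPS array. Csf1r and Cd163 were below the controls of their genotype in both genotypes. Cd68 and Lyz2 were so in wild-type spleens only, and Itgam overlapped in both. Cd14, the LPS co-receptor, had 3549, 3885 and 2883 in knockout LPS and 2187, 1935 and 2081 in wild-type LPS arrays, against 232 to 321 in knockout and 256 to 478 in wild-type controls. Csf1r, the receptor for a macrophage growth factor, had 2383 to 4257 in knockout LPS and 1768 to 2030 in wild-type LPS arrays, against 5364 to 5865 in knockout and 5521 to 5755 in wild-type controls. Cd14 was thus higher after LPS, as Map3k8, Map2k1 and Mapkapk2 were, and Csf1r was lower, as Mapk14 was. Neutrophil markers ran from 3633 to 5667 in knockout LPS, 5153 to 7742 in wild-type LPS, 3974 to 10063 in knockout control and 3602 to 12989 in wild-type control arrays, with overlap throughout. After LPS, all knockout arrays were above all wild-type arrays in the sums for monocytes and macrophages and for red cell precursors (3816 to 4714 in knockout, against 2248 to 3795 in wild-type LPS arrays), as they were for Map2k3, Map2k4 and Mapkapk2. The members of these lists differed. In the red cell list this held for Alas2 (3105 to 4010 against 1668 to 2721), while Klf1, Hemgn, Epor and Tfrc overlapped. In the other list it held for Csf1r, Cd68 and Cd14, while Lyz2 and Cd163 overlapped. Itgam was lower in all knockout LPS arrays (28 to 31 against 43 to 62). The part of the cell makeup in the members' values was not tested.

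The genotypes were then compared directly. After LPS, 0 of the 8 members were called between knockout and wild-type spleens in limma's fit, against 0.363% of all genes, and 3 had an unadjusted p under 0.05. In controls 0 were called, with 1 at an unadjusted p under 0.05, and 0% of all genes were called. For the difference between the LPS responses 0 were called, with 3 at an unadjusted p under 0.05, and again 0% of all genes were called. A response called in knockout and not in wild-type spleens, as for Map2k4 and Mapkapk2, is therefore not shown to differ between the genotypes.

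**Figure D3:**
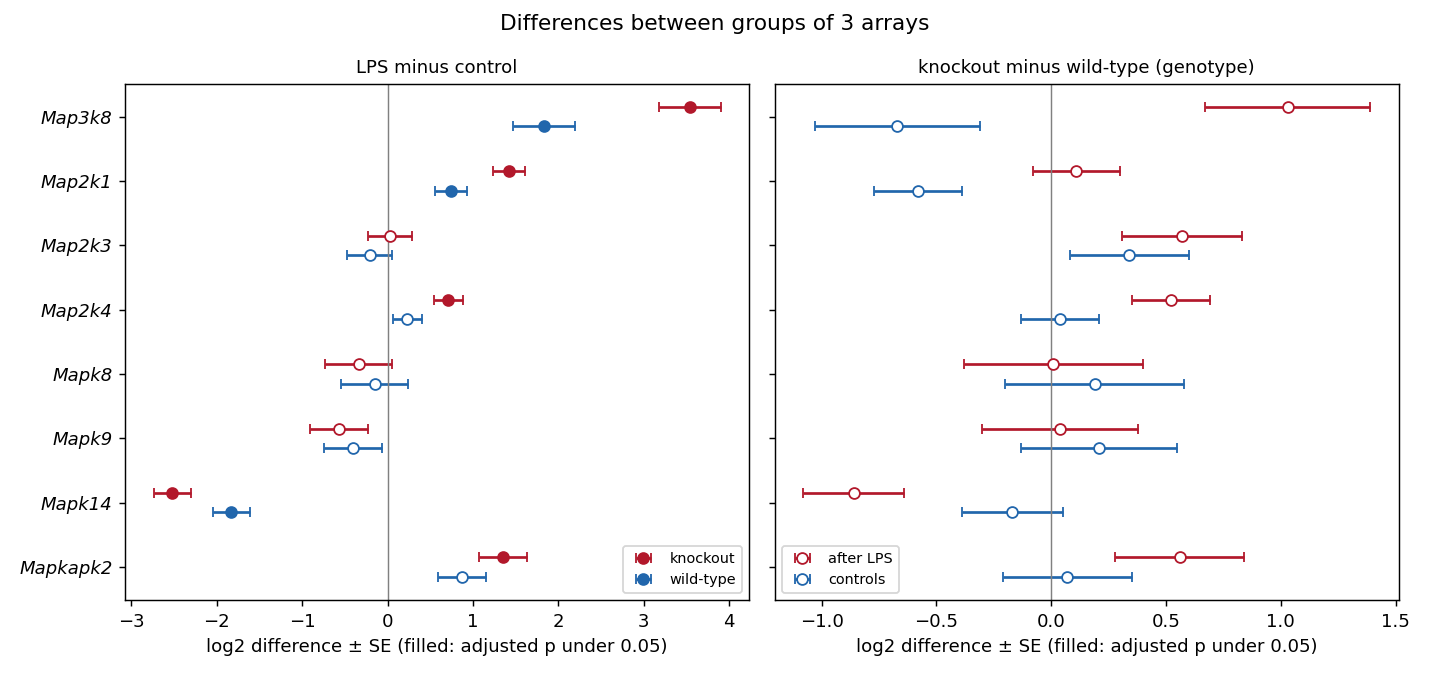
Log2 differences with standard errors for the 8 measured members, with LPS minus control in knockout and wild-type spleens on the left, and knockout minus wild-type after LPS and in controls on the right. Filled symbols have an adjusted p under 0.05, and no genotype difference is filled.

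The lowest adjusted p of a genotype difference after LPS was that of Mapk14. All 3 knockout LPS arrays were below all wild-type LPS arrays. The log2 difference was -0.86 ± 0.22 with a 95% interval of -1.34 to -0.38 (limma adjusted p = 0.1824). Without the 2 knockout LPS arrays high in lung transcripts, which leaves 1 array in that group, it was -0.45 (adjusted p = 0.9437). In controls the difference was -0.17 ± 0.22, and the difference between responses was -0.68 ± 0.31 (adjusted p = 0.917). Mapk14 lies on chromosome 17, 2.18 Mb from Dusp1. Whether sequence near the altered allele differs between the 2 genotypes was not tested.

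Map3k8 was higher in knockout LPS than in wild-type LPS arrays by 1.03 ± 0.36 (limma adjusted p = 0.3783), with arrays that overlapped, and lower in all 3 knockout controls by -0.67 ± 0.36 (adjusted p = 1). Its LPS response was larger in knockout spleens by 1.71 ± 0.51, with a 95% interval of 0.57 to 2.84 (unadjusted p = 0.006984, adjusted p = 0.6483). Without the 2 knockout LPS arrays high in lung transcripts, the difference after LPS was 0.31 (adjusted p = 1). For Map2k1 the levels after LPS differed by 0.11 ± 0.19, and the knockout controls differed from the wild-type controls by -0.58 ± 0.19 (unadjusted p = 0.01092, adjusted p = 1). Map2k3, Map2k4 and Mapkapk2 were higher in all 3 knockout LPS arrays than in any wild-type LPS array, by 0.57 ± 0.26 (adjusted p = 0.5794), 0.52 ± 0.17 (adjusted p = 0.3105) and 0.56 ± 0.28 (adjusted p = 0.6355), none of them called. Without the 2 knockout LPS arrays high in lung transcripts these differences were 0.99 for Map2k3, 0.39 for Map2k4 and 0.97 for Mapkapk2.

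With arrays weighted by their fit to the model, limma called 3 members after LPS: Map3k8 with 1.42 (adjusted p = 0.009275), Map2k4 with 0.64 (adjusted p = 0.009304) and Mapk14 with -0.98 (adjusted p = 0.004025). No other alternative called a member between genotypes after LPS.

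Other genes of the cascade were taken from 7 lists of 76 genes, 57 of them measured. Averaged over genotypes, LPS raised 10 and lowered 10 of the 57, against 8.52% of all genes higher and 14.3% lower, with a median of -0.06 beside -0.04 for all genes. In knockout spleens 9 rose and 5 fell, against 5.54% of all genes higher and 9.71% lower. In wild-type spleens 5 rose and 1 fell, against 3.93% higher and 4.16% lower, so the 6 of 57 called are near the 8.09% of all genes. Between genotypes 0 were called after LPS, in controls or in the difference of responses. The counts by list in the average were 1 higher and 3 lower of 7 MAP kinases, 0 and 1 of 3 MAP2 kinases, 1 and 2 of 14 MAP3 kinases, 0 and 2 of 4 downstream kinases, 4 and 1 of 13 scaffolds and adaptors, 1 and 0 of 6 GTPases and exchange factors, and 3 and 1 of 10 transcription factor targets.

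**Figure D4:**
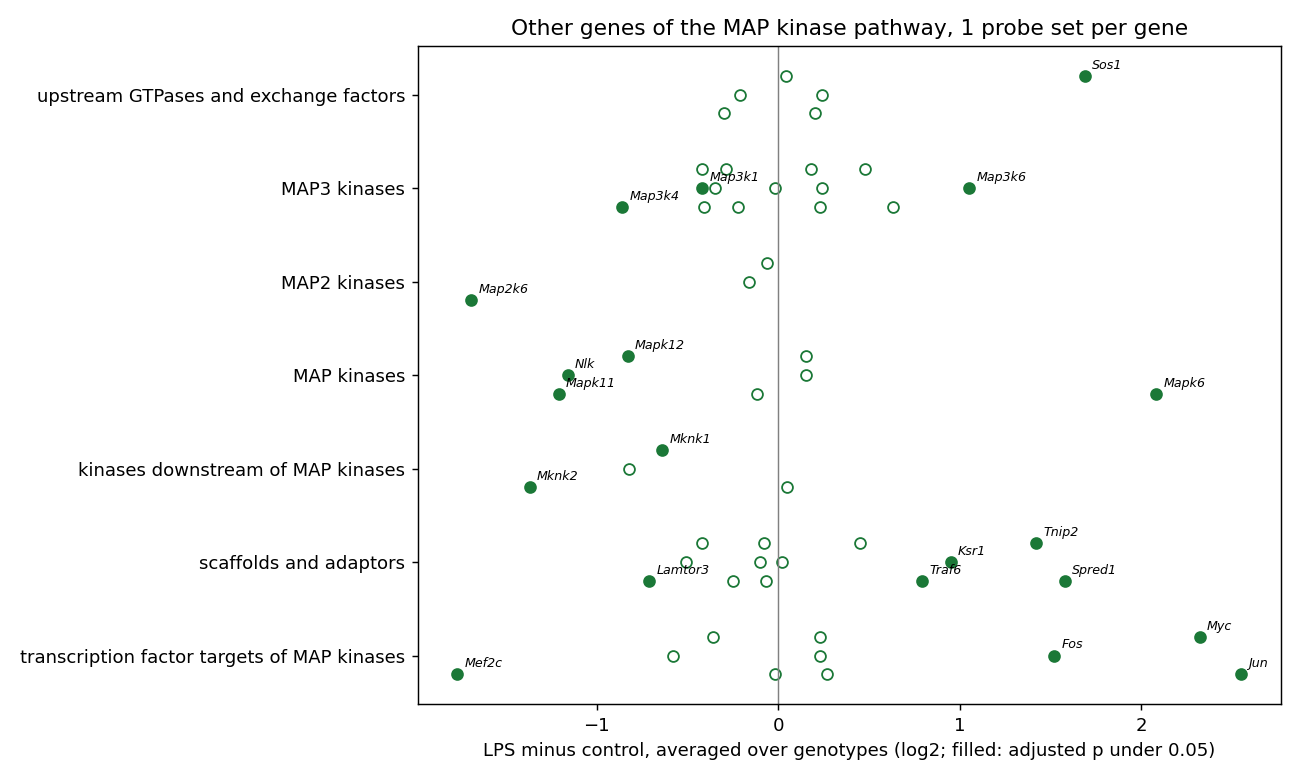
Log2 LPS response (LPS minus control, averaged over genotypes) of the 57 other cascade genes measured, 1 point per gene, with a line of points for each list and filled, named points where the adjusted p was under 0.05. Jun lies highest at 2.55 and Mef2c lowest at -1.77.

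Mapk6 encodes ERK3, an atypical MAP kinase. Its intensity was 1053, 762 and 1045 in knockout LPS arrays, 589, 455 and 452 in wild-type LPS arrays, 145, 125 and 158 in knockout controls and 163, 204 and 187 in wild-type controls. It rose by 2.73 ± 0.19 in knockout spleens (limma adjusted p = 2.05e-05) and by 1.43 ± 0.19 in wild-type spleens (adjusted p = 0.001706), and after LPS all knockout arrays were above all wild-type arrays, by 0.93 ± 0.19 (adjusted p = 0.08418). Without the 2 knockout LPS arrays high in lung transcripts that difference was 0.62 (adjusted p = 0.6789). Its group means had the same order as those of Map3k8, with knockout LPS highest and knockout controls lowest.

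Map2k6 encodes MKK6, with Map2k3 the main activator of p38. Its intensity was 26, 21 and 14 in knockout LPS arrays, 21, 22 and 17 in wild-type LPS arrays, 73, 63 and 56 in knockout controls and 42, 75 and 83 in wild-type controls. It was lower by -1.69 in both genotypes (limma adjusted p = 0.003961 in knockout and 0.00685 in wild-type spleens), with no overlap between LPS and control arrays. The LPS values were dim, from 14 to 26, so background limits how well the size of the fall can be read. Without the 2 wild-type controls low in Xist the wild-type response was -1.08 and not called (adjusted p = 0.1438). Another 2 p38 genes, chosen after their values were seen, were lower in the average: Mapk11 (p38 beta) by -1.21 ± 0.38 (adjusted p = 0.04882) and Mapk12 (p38 gamma) by -0.83 ± 0.23 (adjusted p = 0.02643). The Mapk11 call was kept in 5 of 23 alternatives and the Mapk12 call in 12. Mapk13 (p38 delta) was dim, between 17 and 26 on every array, and averaged -0.12 ± 0.12.

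Among the substrates, Jun, a subunit of the AP-1 transcription factor and the target of JNK, rose by 2.63 ± 0.58 in knockout spleens (limma adjusted p = 0.01409) and by 2.47 ± 0.58 in wild-type spleens (adjusted p = 0.03004). Its LPS arrays ran from 1303 to 1864 in knockout and 840 to 1435 in wild-type spleens, against 90 to 498 in knockout and 115 to 372 in wild-type controls. The wild-type call of Jun held in 17 of 24 alternatives and was lost, with an adjusted p up to 0.1195, without wild-type LPS 2 or 3, control 1 or 2 of that genotype, the controls low in Xist or the 2 knockout LPS arrays high in lung transcripts. Myc rose by 2.44 ± 0.43 in knockout spleens (adjusted p = 0.004258) and by 2.19 ± 0.43 in wild-type spleens (adjusted p = 0.01283), the second lost without wild-type LPS 2 or 3 or with only the groups compared (adjusted p up to 0.06809). Fos, the partner of Jun in AP-1, rose in knockout spleens, by 2.25 ± 0.47 (adjusted p = 0.01047), and its wild-type response was 0.79 ± 0.47 (adjusted p = 0.4323). The difference between the Fos responses was 1.46 (adjusted p = 0.917) and was not called. Mef2c, a target of p38 and a transcription factor of B cells and muscle, was lower in the average by -1.77 ± 0.43 (adjusted p = 0.01398), and its intensity ran from 142 to 205 in knockout LPS and 125 to 416 in wild-type LPS arrays, against 305 to 1607 in knockout and 401 to 898 in wild-type controls. The Mef2c call was lost with all its probe sets averaged (-0.65, adjusted p = 0.22). It was also lost without the 2 knockout LPS arrays high in lung transcripts, with an average of -1.84. That fit leaves 1 knockout LPS array. In it the knockout responses were 2.94 for Jun, 2.58 for Myc, 2.51 for Fos and -1.60 for Map2k6, none of them called. That of Mapk6 was 2.42 and kept its call.

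Upstream, Sos1, the exchange factor that loads Ras, had 213, 184 and 210 in knockout LPS arrays, 73, 89 and 69 in wild-type LPS arrays, 29, 71 and 42 in knockout controls and 26, 36 and 40 in wild-type controls. It rose by 2.19 ± 0.29 in knockout spleens (limma adjusted p = 0.001049) and by 1.19 ± 0.29 in wild-type spleens (adjusted p = 0.03621). After LPS the knockout arrays were all above the wild-type arrays, by 1.40 ± 0.29 (adjusted p = 0.09099). That difference missed the threshold here and passed it in 6 of 24 alternatives. Without the 2 knockout LPS arrays high in lung transcripts, which leaves 1 in that group, the knockout response of Sos1 was 2.06 and not called. Its wild-type response was called in 11 of 24 alternatives and was not called with all its probe sets averaged. Over the alternatives the Sos1 response was as low as 1.08 in knockout and 0.47 in wild-type spleens. Spred1, an inhibitor of Ras signalling to Raf, rose by 2.04 ± 0.28 in knockout spleens (adjusted p = 0.001113) and by 1.13 ± 0.28 in wild-type spleens (adjusted p = 0.035), the second called in 9 of 24 alternatives.

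Tnip2 (ABIN2), which binds and stabilises the TPL2 protein that Map3k8 encodes, was named after its values were seen. Its intensity was 259, 144 and 288 in knockout LPS arrays, 177, 121 and 139 in wild-type LPS arrays, 38, 130 and 71 in knockout controls and 58, 62 and 69 in wild-type controls. In the average it was higher by 1.42 (limma adjusted p = 0.005046), in the direction of Map3k8. Without the 2 knockout LPS arrays high in lung transcripts, which leaves 1 in that group, the average was 1.11 and not called.

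The genes whose profile over the 12 arrays lay closest to each called member were found among 8099 genes by the root mean square difference of their centred log2 values, which is 0 for identical profiles. Closest to Map3k8 were Il15 (0.365), Dusp16 (0.383) and Gem (0.440), against a spread of Map3k8 itself of 1.47. Dusp16 encodes a phosphatase of the same family as DUSP1, and Il15 a cytokine that sustains natural killer cells. Closest to Mapk14 were Rxra (0.216), Gga2 (0.245) and Vsir (0.254), against a spread of 1.15.

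Closest to Map2k1 were Rcn1 (0.212), Myd88 (0.226) and Fbxw11 (0.228), against a spread of 0.60. Myd88 encodes the adaptor of Toll-like receptors. For Mapkapk2 the closest were Tmem192 (0.157), Ogfr (0.176) and Egln2 (0.183), against a spread of 0.66. For Map2k4 they were Stk39 (0.136), Smarce1 (0.167) and Isoc1 (0.175), against a spread of 0.33.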

How the data were processed

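Spleen RNA of 12 mice (5 µg each) was measured on 1 array per mouse, and groups were taken from the sample titles. The values are those the authors deposited, 1 linear intensity per probe set, made with RMA in the R affy package per the series' design text and rounded to whole numbers from 6 to 15228, of which 30.84% lay under 20. No version is given in the sources used here. The intensities were log2-transformed here. Of 22690 probe sets, 64 controls were left out, and of the rest 20380 name 1 gene, 691 several and 1555 none. A gene was represented by its brightest probe set naming it alone, with sets ending in _x_at set aside where there was another. Group means were fitted with limma 3.58.1 in R 4.3.3 (lmFit, eBayes, 8 residual and 2.722 prior degrees of freedom), and 6 two-sided contrasts were adjusted by Benjamini-Hochberg over all 22626 probe sets, with a threshold of 0.05. Precision is limited by the number of arrays and, for dim probe sets, by background. On simulated data for the wild-type LPS comparison, over 22626 probe sets, the fit recovered 27 of 100 changes of 1 and 79 of 100 changes of 2 on the log2 scale, with 5 false calls. The simulated noise was independent between probe sets. A smaller share of them was changed than the 6.59% called in the real comparison, so recovery in these data can differ.

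The members and the lists were chosen with earlier results of these data known. Named were all members, up to 6 called genes of the lists per contrast with the largest change, Dusp1, and the 3 genes nearest each called member among those with a mean intensity above the 40th percentile (30.49). Alternatives were other scalings, filters, floors, probe set rules, variance models, array weights, the groups in the fit, the replicate number as a block and leaving out each array. Another 3, chosen after seeing the data, left out the 3 arrays high in pancreas transcripts, the 2 wild-type controls low in Xist, or the 2 knockout LPS arrays high in lung transcripts, with the 2 knockout controls high in lung transcripts kept. Promoter sequences are RefSeq's (GRCm38.p6). That of Map3k8 and Mapk3 values are not reported here.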

Additional observations from a re-analysis of the deposited data

How the results depend on the processing

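In wild-type spleens the 3 members called after LPS became 1 to 3 on leaving out 1 array at a time, 1 without the 3 arrays high in pancreas transcripts and 1 without the 2 wild-type controls low in Xist. In knockout spleens the 5 became 3 with only the groups compared in the fit and 3 without the 2 knockout LPS arrays high in lung transcripts. After LPS the 0 members called between genotypes became 3 with array weights. With fewer arrays, or fewer groups, the fit has fewer degrees of freedom. The cause of the other changes was not tested. Replicate numbers did not pair the arrays: of 18 same-number pairs, 6 had deviations correlated over 0.1, and of 36 other pairs, 13, and 4 of 12 arrays correlated best with their own number. With the replicate block, 2 members were called in wild-type spleens and 5 in knockout spleens.

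Shifting all arrays to 1 median moved the median LPS response of all genes by 0.22 in knockout and 0.12 in wild-type spleens, and by 0.17 in the average.

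Log2 differences that turned in sign were those of comparisons in which the member was not called. With array weights they were Mapk8 in knockout after LPS (0.07), in controls (-0.01) and in the difference of responses (0.42), and Mapk9 in controls (-0.03) and in the difference of responses (0.26). With arrays shifted to 1 median they were the Map2k3 average (0.08) and Map2k4 in controls (-0.02). With all probe sets averaged they were Map2k3 in wild-type (0.15) and in the average (0.20), Mapk8 (-0.22) and Mapk9 (-0.07) between genotypes after LPS, and Map2k4 (-0.05) and Mapk8 (-0.02) in controls. Without the 2 knockout LPS arrays high in lung transcripts they were the Map2k3 average (0.12), and Mapk8 (-0.72) and Mapk9 (-0.17) after LPS. Without the controls low in Xist they were Map2k3 in wild-type (0.03) and in the average (0.03), and Map2k4 (-0.04) and Mapk14 (0.04) in controls. Without the arrays high in pancreas transcripts they were Map2k4 (-0.02) and Mapkapk2 (-0.02) in controls. Leaving out 1 array at a time gave ranges of -0.19 to 0.04 for the Map2k3 average, -0.18 to 0.28 for Map2k3 and -0.59 to 0.03 for Mapk8 in knockout, and -0.43 to 0.01 for Mapk8 in wild-type spleens. They were -0.44 to 0.18 for Mapk8 and -0.42 to 0.20 for Mapk9 in the difference of responses, and -0.23 to 0.37 for Mapk8 and -0.17 to 0.29 for Mapk9 after LPS. In controls they were -0.06 to 0.11 for Map2k4, -0.15 to 0.44 for Mapk8, -0.16 to 0.46 for Mapk9 and -0.14 to 0.31 for Mapkapk2. Of all single-gene values under the alternatives, 1916 kept direction and side of the threshold, 154 lost a call, 29 gained one and 49 turned in sign.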

Other observations

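Lamtor3, Mknk2 and Nlk were picked out after their values were seen. Lamtor3 encodes MP1, a scaffold that holds MEK1 and ERK1 together on late endosomes. Its intensity was 327, 214 and 356 in knockout LPS arrays, 579, 501 and 536 in wild-type LPS arrays, 529, 672 and 804 in knockout controls and 688, 636 and 585 in wild-type controls. It was lower by -1.17 on the log2 scale in knockout spleens (limma adjusted p = 0.006126), where Map2k1, the gene for its partner MEK1, rose, and its wild-type response was -0.24 (adjusted p = 0.6667). All knockout LPS arrays were below all wild-type LPS arrays, by -0.88 (adjusted p = 0.1728), and the difference between the responses, -0.93, was not called either (adjusted p = 0.7286).

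Mknk2 encodes MNK2, which ERK activates and which phosphorylates the translation factor eIF4E. Its intensity was 602, 1440 and 620 in knockout LPS arrays, 1457, 1527 and 1281 in wild-type LPS arrays, 2377, 2819 and 3279 in knockout controls and 2123, 2486 and 3883 in wild-type controls. It was lower by -1.78 in knockout spleens (limma adjusted p = 0.006268), with a wild-type response of -0.95 (adjusted p = 0.1353). The 2 lowest arrays, knockout LPS 1 and 3, were the LPS arrays high in lung transcripts. Without them, which leaves 1 knockout LPS array, the averaged response of -1.37 was -0.95. Knockout control 2 and 3, also high in lung transcripts, had 2819 and 3279, against 2377 in knockout control 1. The part of lung transcripts in these values was not tested. Nlk, an atypical MAP kinase, was lower by -1.75 in knockout spleens (adjusted p = 0.002702), with a wild-type response of -0.57 (adjusted p = 0.3145).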
